A study of Mus musculus with 6 samples.

Results

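B cell genes were followed in RNA sequencing libraries of CD8+ T cells isolated from mouse spleen. The set holds 38 genes of B cell identity and antigen receptor signalling, taken as a named list out of 26181 genes in the table. All animals were wild-type C57BL/6 mice, 6 weeks old at the start and kept on their diet for 7 weeks. The CDAHFD group ate a high-fat diet that lacks choline and holds defined amino acids, used in mice to bring on steatohepatitis, and gave 3 libraries. The ND group ate the diet labelled ND and gave 3 libraries. The sources used here do not give the method or purity of the CD8+ isolation. Separate animals per library are not stated either, so a p-value covers only the spread among these samples, and that spread may be technical.

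A B cell senses antigen through membrane immunoglobulin, which signals through the paired chains encoded by Cd79a and Cd79b. Src-family kinases such as Lyn and Blk phosphorylate these chains, Syk binds them, and the adaptor Blnk then brings Btk to phospholipase C gamma 2, the product of Plcg2. Pax5 and Ebf1 hold the B cell programme in place. In the spleen, follicular B cells carry CD23 (Fcer2a), marginal zone B cells carry much CD21 (Cr2) and CD1d (Cd1d1), and germinal centre B cells depend on Bcl6.

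The sequences that follow are promoter windows of 5 members, shown because these genes carry the contrasts described further on. Cr2 and Bank1 were higher, and Fcer2a, Vpreb3 and Cd22 lower, in CDAHFD libraries. Each window runs from 250 bases before to 50 bases after an annotated start in RefSeq (GRCm38.p6), 5′ to 3′ on the gene's strand, and capitals mark a motif match.
Cr2 (chr1:195176670-195176969, minus strand): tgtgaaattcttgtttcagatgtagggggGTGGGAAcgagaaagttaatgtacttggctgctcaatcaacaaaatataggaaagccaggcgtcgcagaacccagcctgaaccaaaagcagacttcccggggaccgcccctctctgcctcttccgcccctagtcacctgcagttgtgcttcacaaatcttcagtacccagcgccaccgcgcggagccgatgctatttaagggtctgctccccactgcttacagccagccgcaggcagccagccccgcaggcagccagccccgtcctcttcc
Fcer2a (1 of its 3 windows, chr8:3690812-3691111, minus strand): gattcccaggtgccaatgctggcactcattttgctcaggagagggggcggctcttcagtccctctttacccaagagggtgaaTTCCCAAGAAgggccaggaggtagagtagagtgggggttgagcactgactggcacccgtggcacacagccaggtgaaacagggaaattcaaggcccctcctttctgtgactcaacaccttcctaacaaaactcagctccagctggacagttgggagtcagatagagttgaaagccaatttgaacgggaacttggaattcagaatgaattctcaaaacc
Bank1 (chr3:136326017-136326316, minus strand): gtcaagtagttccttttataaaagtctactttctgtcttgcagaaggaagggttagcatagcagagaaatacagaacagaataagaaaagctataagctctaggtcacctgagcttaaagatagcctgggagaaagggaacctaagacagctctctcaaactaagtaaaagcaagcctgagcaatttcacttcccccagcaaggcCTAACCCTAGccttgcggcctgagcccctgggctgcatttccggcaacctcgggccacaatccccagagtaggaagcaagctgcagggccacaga
Vpreb3 (chr10:75948050-75948349, plus strand): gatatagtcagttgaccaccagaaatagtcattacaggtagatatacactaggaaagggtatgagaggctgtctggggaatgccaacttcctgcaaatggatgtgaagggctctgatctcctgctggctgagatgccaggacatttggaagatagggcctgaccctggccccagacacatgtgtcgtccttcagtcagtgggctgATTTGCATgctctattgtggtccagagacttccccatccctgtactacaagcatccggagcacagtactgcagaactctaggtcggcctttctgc
Cd22 (chr7:30878979-30879278, minus strand): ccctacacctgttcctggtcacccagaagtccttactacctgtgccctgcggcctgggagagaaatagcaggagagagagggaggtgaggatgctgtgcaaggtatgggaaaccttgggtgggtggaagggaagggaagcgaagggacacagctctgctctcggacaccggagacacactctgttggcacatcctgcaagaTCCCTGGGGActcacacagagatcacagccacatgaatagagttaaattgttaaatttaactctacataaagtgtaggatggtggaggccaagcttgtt

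The RefSeq windows matched 31 of 38 members, in 40 windows, and 6 motifs were searched on both strands. Each window shown held 1 match, while most members with a window had none. The other windows of Fcer2a held none. The capitals in Cr2 are the letters GTGGGAA, a motif of the Notch partner RBPJ. This motif stood in 4 of 40 member windows and 6.38% of 32851 windows of all genes. The member windows were those of Cr2 and Ebf1 and windows 1 and 2 of Cd180, so Cd180 was counted more than once. The capitals in Fcer2a read TTC, any 4 bases and GAA, a STAT6 motif (3 of 40 member windows, 6.95% of all windows). Those in Bank1 read CTA, any 4 bases and TAG, the outer letters of a MEF2 motif (1 of 40, against 3.69% of all windows). The 4 middle bases, ACCC in Bank1, were left free in the search, so a full MEF2 motif is not shown. In Vpreb3 they mark the octamer ATGCAAAT on the opposite strand, a motif of the factors that the product of Pou2af1 works with (2 of 40, against 1.74%). In Cd22 they read TCCC, any 2 bases and GGGA, an EBF motif (1 of 40, against 0.904%). The letters GAGGAAGT, a motif shared by Spi-B and PU.1, stood in 2 of 40 member windows and 3.2% of all windows. A match is a stretch of letters, not a bound site.

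Values are normalised read counts, which are reads per gene divided by a factor for each library's depth. Depth ranged from 25314988 to 28067393 reads in genes per library. The label of CD8+ T cells was checked on genes per length: Cd8b1 averaged 12914 normalised counts per kilobase of exon in CDAHFD libraries and 17229 in ND libraries, and Cd8a averaged 7667 and 9043. RNA of B cells was present beside it. On the same scale Cd79a stood at 1924 in CDAHFD libraries and 2384 in ND libraries, and Cd79b at 1888 and 2742. Macrophage RNA differed far more: the summed level of 20 macrophage genes, none of them at 0, was 200151 to 220260 normalised counts in CDAHFD libraries and 25743 to 28663 in ND libraries, and 20 of 20 rose. So did 10 of 10 erythroid and 10 of 12 neutrophil genes, while 16 of 20 CD8 T cell identity genes, 8 of 10 conventional dendritic cell genes and 6 of 10 plasmacytoid dendritic cell genes fell. In the last of these lists 2 genes rose, by up to 3.21 on the log2 scale. Fewer cells of a type and less RNA per cell cannot be told apart in such libraries.

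Of the 38 members, 36 passed the minimum of 10 normalised counts on average over the 6 libraries and were tested with limma. At an adjusted p under 0.05, the threshold for rose and fell throughout, 12 rose and 19 fell in CDAHFD libraries, while 5 did not pass. Among all 15819 genes tested, 47.1% were called, 24.6% higher and 22.5% lower. The members' median log2 fold change was -0.19, beside -0.01 for all genes tested. Scaled to the CD8 T cell identity genes, it was 0.06, beside 0.23 for all genes. Under that scaling 16 members rose and 14 fell, where 9176 of all 15819 genes tested were called in either direction. Scaled to 5 core B cell genes, among them Cd79a, Cd79b, Ms4a1 and Pax5, the members' median was 0.25, beside 0.42 for all genes. Then 21 members rose and 6 fell, where 72.3% of all genes tested were called higher and 3.13% lower. Of the 31 called members 19 stayed under 1.5-fold and 12 reached it, or 12 of 36 tested, where 18.6% of all genes tested were called at 1.5-fold or more. Of the tested members 5 were called at 2-fold or more, where 11.2% of all genes tested were, with the rises of S1pr3, Syk and Lyn and the falls of Vpreb3 and Tnfrsf13b. Of the tested members, 12 lay higher in every CDAHFD library than in any ND library and 20 lower, where 27.8% and 26.5% of all tested genes did, or 54.3% in either direction.

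**Figure D1:**
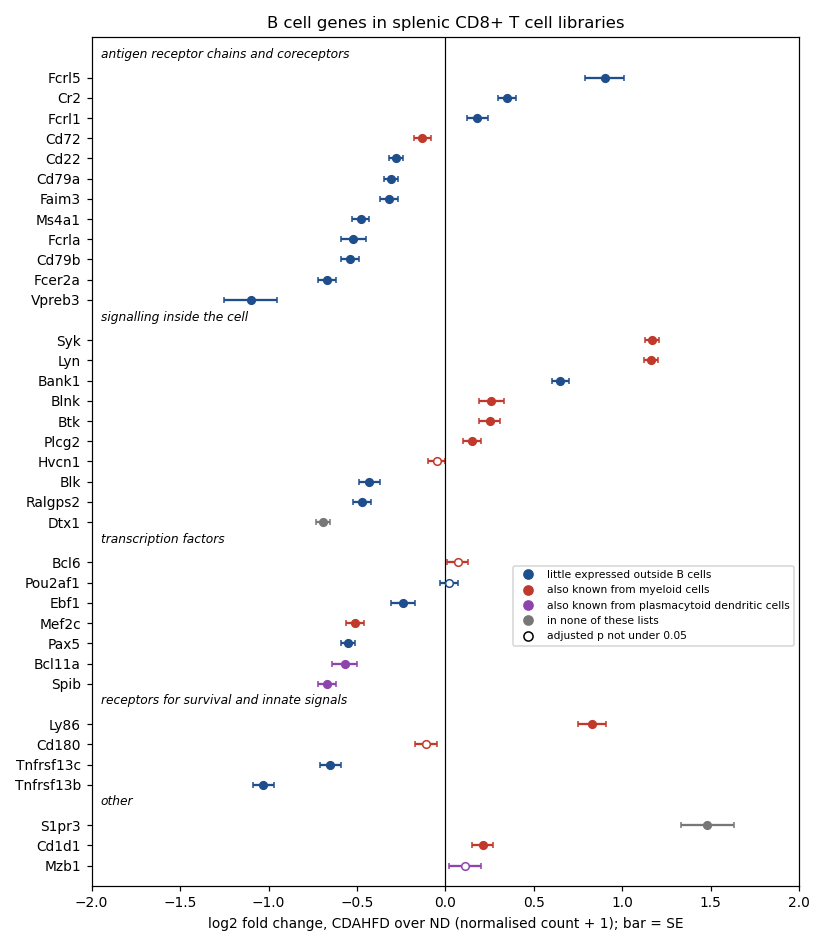
Log2 fold change of CDAHFD over ND for the 36 tested members, in 5 role groups, with bars for the standard error and open circles for the 5 members that did not pass the test. Members little expressed outside B cells lie mostly left of 0, with Fcrl5, Bank1, Cr2, Fcrl1 and the uncalled Pou2af1 to the right. Members also known from myeloid cells lie mostly right of 0, led by Syk and Lyn. With libraries scaled to 5 core B cell genes, Cd79a, Cd22, Cd72, Faim3, Blk, Ebf1, Hvcn1 and Cd180 change sign.

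The signalling chains of the antigen receptor fell, although the log2 fold change of Cd79a was -0.06 and uncalled with libraries scaled to CD8 T cell genes and 0.13 with libraries scaled to the core B cell genes, where Cd79b (-0.10) and Ms4a1 (-0.04) were uncalled. Cd79a had 2811, 2750.3 and 2847 normalised counts in CDAHFD libraries, against 3591, 3409 and 3419 in ND libraries. Cd79b had 2819, 2553 and 2734 normalised counts in CDAHFD libraries, against 3624, 4160.1 and 3988 in ND libraries. Both genes were lower in every CDAHFD library than in any ND library. The log2 fold change was -0.31 for Cd79a (SE 0.04, limma adjusted p = 5.87e-07) and -0.54 for Cd79b (SE 0.05, limma adjusted p = 9.15e-10). Ms4a1, which encodes the surface protein CD20, fell to 2885, 2749 and 2935 in CDAHFD libraries, against 3736, 4184 and 4051 in ND libraries (log2 fold change -0.48, SE 0.05, limma adjusted p = 7.02e-10). These are genes that B cells, and few others in spleen, transcribe.

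Of the 12 receptor chains and coreceptors among the members, 9 fell and 3 rose, with a median of -0.32. That median was 0.12 with libraries scaled to the core B cell genes, beside 0.42 for all genes. Inhibitory receptors were among the falls, but under that scaling the signs of Cd22, Cd72 and Faim3 turned. Cd22, a sialic acid-binding brake on the receptor, averaged 2565 ± 88.1 normalised counts in CDAHFD libraries and 3121 ± 82.8 in ND libraries (SD, n = 3 each). Cd72, another inhibitory coreceptor, averaged 1572 ± 53.7 and 1726 ± 55.9, a fall of 0.13 on the log2 scale (SE 0.05, limma adjusted p = 0.0256) that did not pass without CDAHFD replicate 3 (adjusted p = 0.13), ND replicate 1 (adjusted p = 0.112) or ND replicate 2 (adjusted p = 0.0658). Fcrla, an Fc receptor-like protein kept inside the cell, averaged 628 ± 69.2 in CDAHFD libraries and 900.3 ± 18.5 in ND libraries. Faim3, now named Fcmr, encodes the Fc receptor for IgM and averaged 1598 ± 16.6 in CDAHFD libraries and 2001 ± 75.9 in ND libraries. Vpreb3, a relative of the surrogate light chain of B cell precursors, had the largest fall of all members. It had 100.4, 76.7 and 69.7 normalised counts in CDAHFD libraries, against 167, 157 and 206 in ND libraries (log2 fold change -1.10, SE 0.15, limma adjusted p = 7.59e-07). Its level was low in both groups, and the groups did not overlap.

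Fcer2a and Cr2, the receptors that tell follicular from marginal zone B cells, went in opposite directions. Fcer2a had 943, 895 and 928 normalised counts in CDAHFD libraries, against 1455, 1460.2 and 1476 in ND libraries (log2 fold change -0.67, SE 0.05, limma adjusted p = 1.53e-11). Cr2, which in the mouse encodes both complement receptors CD21 and CD35, had 3135, 2814 and 2892 in CDAHFD libraries, against 2214, 2374 and 2323 in ND libraries (log2 fold change 0.35, SE 0.05, limma adjusted p = 3.86e-07). Neither gene's groups overlapped. The other rises in this group were those of Fc receptor-like genes. Fcrl5, known from marginal zone B cells, had 331, 302 and 263 normalised counts in CDAHFD libraries, against 159.5, 167 and 149.9 in ND libraries (log2 fold change 0.90, SE 0.11, limma adjusted p = 8.19e-08). Fcrl1 averaged 926 ± 28.6 in CDAHFD libraries and 821 ± 49.1 in ND libraries (log2 fold change 0.18, SE 0.06, limma adjusted p = 0.0203). Its rise did not pass without CDAHFD replicate 1 (adjusted p = 0.0531) or ND replicate 1 (adjusted p = 0.134).

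**Figure D2:**
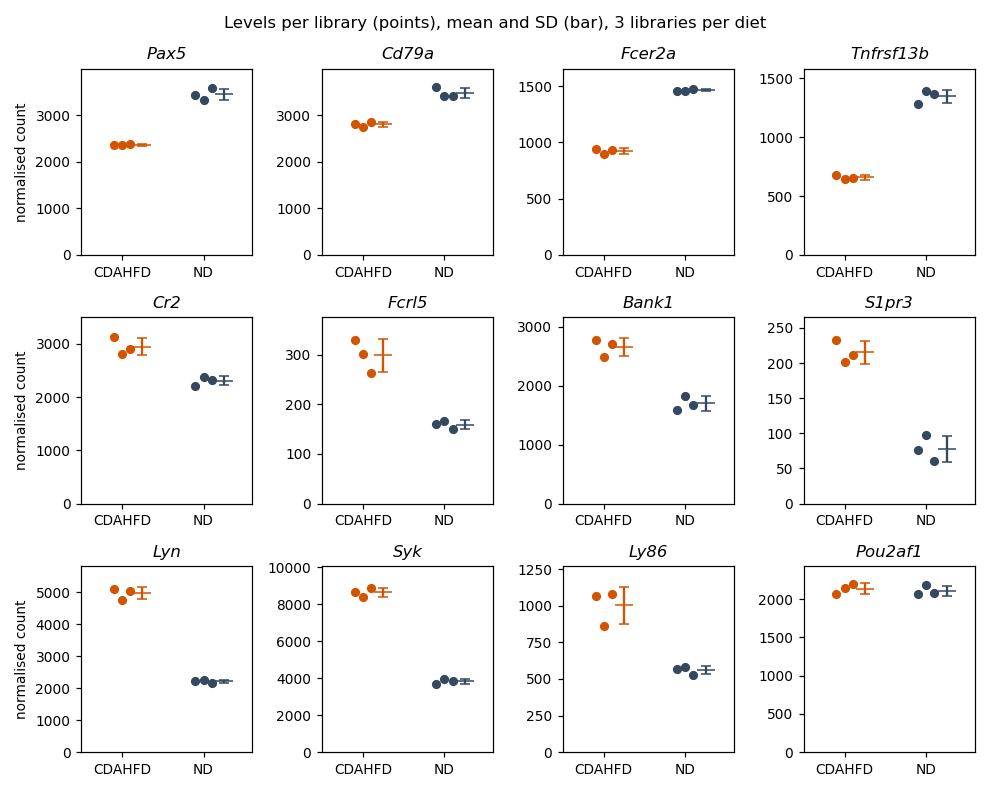
Normalised counts of 12 members in each library, CDAHFD left and ND right, with points for libraries and the mean with its SD beside them. Pax5, Cd79a, Fcer2a and Tnfrsf13b are lower in each CDAHFD library, Cr2, Fcrl5, Bank1, S1pr3, Lyn, Syk and Ly86 are higher, and Pou2af1 overlaps. Cd79a changes sign when libraries are scaled to the core B cell genes.

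Genes of the signalling cascade inside the cell went both ways. Of 10 such members, 6 rose, 3 fell and Hvcn1 did not pass the test, with a median of 0.20. Lyn, a Src-family kinase of B and myeloid cells, had 5097, 4763 and 5049 normalised counts in CDAHFD libraries, against 2226, 2262 and 2165 in ND libraries (log2 fold change 1.16, SE 0.04, limma adjusted p = 4.15e-19). Syk, the kinase that both B cells and phagocytes use below their receptors, had 8673, 8372 and 8882 in CDAHFD libraries, against 3699.8, 3951 and 3848 in ND libraries (log2 fold change 1.17, SE 0.04, limma adjusted p = 9.91e-20). Both kinases were more than 2-fold higher, and their groups lay far apart. Blk, the Src-family kinase that B cells use and few other cells do, went the other way, to 904, 901 and 967 in CDAHFD libraries against 1184, 1329.6 and 1223 in ND libraries (log2 fold change -0.43, SE 0.06, limma adjusted p = 4.95e-07), a fall that was 0.01 with libraries scaled to the core B cell genes.

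Downstream of Syk the rises were small. Btk averaged 1028 ± 50 normalised counts in CDAHFD libraries and 863 ± 62.6 in ND libraries, and Blnk averaged 909 ± 75.9 and 758 ± 28.3. Plcg2 averaged 2325 ± 83.3 in CDAHFD libraries and 2094 ± 76.7 in ND libraries (log2 fold change 0.15, SE 0.05, limma adjusted p = 0.00883), and did not pass without CDAHFD replicate 3 (adjusted p = 0.0524) or ND replicate 1 (adjusted p = 0.0624). All 3 genes are also used by myeloid cells. Bank1, a scaffold that links the receptor to calcium release and is little known outside B cells, rose more. It had 2779.6, 2482 and 2715 in CDAHFD libraries, against 1593, 1835 and 1672 in ND libraries (log2 fold change 0.65, SE 0.05, limma adjusted p = 1.09e-10). Ralgps2, an exchange factor for Ral proteins, fell, with 1961 ± 126 in CDAHFD libraries and 2713 ± 43.7 in ND libraries. Hvcn1, a voltage-gated proton channel of B cells and phagocytes, averaged 1639 ± 92.7 and 1700.0 ± 74.6 (limma adjusted p = 0.425). Dtx1, a Notch target of marginal zone B cells that T cells also express, had 6353, 6861 and 6756 in CDAHFD libraries, against 11163, 10536 and 10446 in ND libraries (log2 fold change -0.69, SE 0.04, limma adjusted p = 3.07e-14).

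Of 7 transcription factors, 5 fell, 0 rose and 2, Bcl6 and Pou2af1, did not pass the test, by limma and likewise by edgeR and DESeq2. At an unadjusted limma p under 0.05, too, 0 were higher. Under the core B cell scaling 3 rose and 1, Spib, fell: Pax5 (-0.11), Mef2c (-0.07) and Bcl11a (-0.14) were then uncalled. The sign of Ebf1 turned under that scaling (0.20) and under the scaling to CD8 T cell genes (0.01). Pax5, the factor that commits cells to the B lineage (chromosome 4, 44524757 to 44710487 in mm10, GENCODE M21), fell to 2354, 2349 and 2372 normalised counts in CDAHFD libraries, against 3434, 3333 and 3574 in ND libraries (log2 fold change -0.55, SE 0.04, limma adjusted p = 1.31e-11). Its CDAHFD libraries were nearly level and lay below every ND library. Ebf1, which acts with Pax5, averaged 544 ± 21.1 in CDAHFD libraries and 642 ± 48.3 in ND libraries (log2 fold change -0.24, SE 0.07, limma adjusted p = 0.00826). Its fall did not pass without ND replicate 1 (adjusted p = 0.0513) or ND replicate 3 (adjusted p = 0.0509). Spib, an Ets factor of B cells and plasmacytoid dendritic cells, had 1536, 1547 and 1692 in CDAHFD libraries, against 2464, 2612 and 2539.9 in ND libraries (log2 fold change -0.67, SE 0.05, limma adjusted p = 2.07e-12). Bcl11a, needed early in the lineage and high in plasmacytoid dendritic cells, averaged 735 ± 65.3 in CDAHFD libraries and 1093 ± 64.4 in ND libraries. In the same libraries Siglech, a defining gene of plasmacytoid dendritic cells, fell by 1.45 on the log2 scale, to 143 ± 20.4 in CDAHFD libraries against 388 ± 18.9 in ND libraries. Of 10 listed genes of these cells, 6 fell, 2 rose, by up to 3.21 on the log2 scale, and 2 did not pass. Mzb1, a member also known from these cells, did not pass either (log2 fold change 0.11). The part of those cells in the falls of Spib and Bcl11a was not tested. Mef2c, a factor of B cell survival and proliferation, averaged 1071 ± 48 in CDAHFD libraries and 1525 ± 55.8 in ND libraries. Pou2af1, a coactivator of octamer-binding factors, averaged 2137 ± 68.6 in CDAHFD libraries and 2108 ± 68.3 in ND libraries (limma adjusted p = 0.765).

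Both receptors for survival signals fell and 1 innate coreceptor rose. Tnfrsf13b encodes TACI and Tnfrsf13c the BAFF receptor, both of which bind the B cell survival factor BAFF. Tnfrsf13b had 681, 642 and 654 normalised counts in CDAHFD libraries, against 1284, 1389.8 and 1362 in ND libraries (log2 fold change -1.03, SE 0.06, limma adjusted p = 9.47e-15). Tnfrsf13c had 540.3, 545 and 535 in CDAHFD libraries, against 837, 824 and 886 in ND libraries (log2 fold change -0.65, SE 0.06, limma adjusted p = 1.53e-09). Neither gene's groups overlapped. Ly86 and Cd180 encode MD-1 and RP105, partners in a complex related to the Toll-like receptors that B cells, macrophages and dendritic cells carry. Ly86 had 1066, 858 and 1082 in CDAHFD libraries, against 567, 582 and 529.9 in ND libraries (log2 fold change 0.83, SE 0.08, limma adjusted p = 1.47e-09). Cd180 averaged 1075 ± 29.5 in CDAHFD libraries and 1165 ± 56.3 in ND libraries and did not pass the test (limma adjusted p = 0.0943), although it passed without CDAHFD replicate 1 (adjusted p = 0.0489). Exons of Cd180 overlap those of Mast4 on the opposite strand, which averaged 1131 in CDAHFD libraries and 739 in ND libraries. Cd72, Lyn, Hvcn1, Pax5 and Bcl11a overlap genes on the opposite strand too. In CDAHFD and ND libraries the partner averaged 578 and 534 for Cd72, and 268 and 314 for Hvcn1. Those of Lyn (26.2 and 27.8), Pax5 (at most 24.1 and 31.4) and Bcl11a (7.87 and 13.6) lay far lower. With no strand setting of the counting given in the sources used here, reads of the partners cannot be told apart.

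The remaining members are mixed in kind. S1pr3, a sphingosine 1-phosphate receptor of marginal zone B cells that other splenic cells also carry, had 233, 202 and 211 normalised counts in CDAHFD libraries, against 76.1, 96.9 and 60.3 in ND libraries (log2 fold change 1.48, SE 0.15, limma adjusted p = 3.33e-09). Cd1d1, which presents lipids to NKT cells, had 1734, 1481 and 1528 in CDAHFD libraries, against 1389, 1316 and 1389 in ND libraries (log2 fold change 0.21, SE 0.06, limma adjusted p = 0.00291). Mzb1, a chaperone of antibody folding, averaged 398 ± 19.6 in CDAHFD libraries and 369 ± 29.9 in ND libraries (limma adjusted p = 0.295). Cxcl13 and Scd3 lay below the minimum for testing. Cxcl13, the chemokine that draws B cells into follicles and is made by stromal cells more than by B cells, had 15, 13 and 11 reads in CDAHFD libraries, against 1, 4 and 4 reads in ND libraries. Its groups did not overlap, and without a filter its log2 fold change was 1.91 (limma adjusted p = 0.00169). Scd3, a stearoyl-CoA desaturase with close relatives that could share its reads, had 3, 7 and 15 reads in CDAHFD libraries, against 9, 9 and 5 reads in ND libraries, which overlap.

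Grouped by where they are expressed, the members parted. The grouping is textbook knowledge, written with earlier results of these data known. Of 19 members little expressed outside B cells, 14 fell, 4 rose and Pou2af1 did not pass, with a median log2 fold change of -0.43, beside -0.01 for all genes tested, -0.29 for 20 CD8 T cell identity genes and -0.19 for all tested members. That median was -0.19 with libraries scaled to the CD8 T cell genes, where the median of all genes was 0.23, and turned to 0.01 with libraries scaled to the core B cell genes, where the median of all genes was 0.42. Of 12 members also known from macrophages or other myeloid cells, 7 rose, 2 fell and 3 did not pass, with a median of 0.18. The macrophage list rose beside them, by a median of 3.03, with Csf1r at 27030.4 ± 869 normalised counts in CDAHFD libraries and 3327 ± 152 in ND libraries. The part of macrophage RNA in the rises of Lyn, Syk and Ly86 was not tested.

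**Figure D3:**
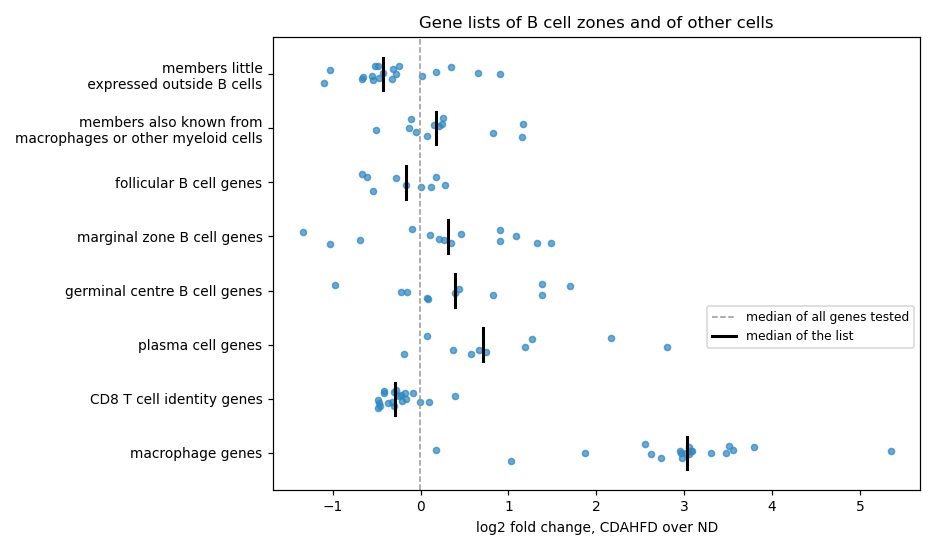
Log2 fold change of CDAHFD over ND for each tested gene (points) of 8 lists, with a black bar for the list's median and a dashed line for the median of all genes tested. The medians run between -0.43 for members little expressed outside B cells and 3.03 for macrophage genes, with the marginal zone list at 0.31 and the follicular list at -0.17. With libraries scaled to the CD8 T cell genes or to the core B cell genes the follicular median is 0.08 or 0.27. The median of all genes is then 0.23 or 0.42, so the follicular median stays below it. The first list's median is 0.01 under the second of these scalings.

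Splenic B cell zones were compared by lists that hold members and other genes. Of 14 marginal zone genes, 9 rose, 3 fell and 2 did not pass, with a median of 0.31. Their summed level was lower, at 27766 to 27795 normalised counts in CDAHFD libraries and 29520.4 to 29789 in ND libraries. Their rises took in Cr2, Cd1d1, Fcrl5 and S1pr3 among the members, and Asb2, Myof, Notch2, Hes1 and Tm6sf1 among the others. Notch2, the receptor that marginal zone B cells need, averaged 6826 ± 85.7 normalised counts in CDAHFD libraries and 4976 ± 96.3 in ND libraries, and was picked for naming with its value known. Asb2, a ubiquitin ligase subunit, averaged 2868 ± 46.9 in CDAHFD libraries and 1349 ± 47.8 in ND libraries. The falls were those of Dtx1, Tnfrsf13b and Plac8, with Plac8 at 1673 ± 86.9 in CDAHFD libraries and 4238 ± 153 in ND libraries (log2 fold change -1.34, SE 0.05, limma adjusted p = 1.14e-19). Several of these genes are also expressed by T cells or myeloid cells, so the list does not read marginal zone B cells alone.

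Of 9 follicular genes, 3 rose, 5 fell and Cd55 did not pass, with a median of -0.17. That median was 0.08 with libraries scaled to the CD8 T cell genes and 0.27 with libraries scaled to the core B cell genes. The medians of all genes were then 0.23 and 0.42, so the list stayed below them. Ighd, the constant region of the IgD that mature follicular B cells display, averaged 3196 ± 56.8 normalised counts in CDAHFD libraries and 4660.3 ± 200.3 in ND libraries (log2 fold change -0.54, SE 0.04, limma adjusted p = 1.12e-11). Ccr7, a homing receptor that naive T cells also express, fell to 8211 ± 112 in CDAHFD libraries, against 9944 ± 262 in ND libraries. Cxcr5, the receptor for the product of Cxcl13, rose to 1716 ± 69.8 in CDAHFD libraries against 1414 ± 27.1 in ND libraries, and was likewise picked with its value known.

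Of 11 germinal centre genes, 5 rose, 1 fell and 5 did not pass, with a median of 0.39. Bcl6, the one member among them and a repressor that follicular helper T cells also need, had 953, 919 and 959 normalised counts in CDAHFD libraries, against 899.7, 925 and 870.2 in ND libraries, which overlap (limma adjusted p = 0.337). Efnb1, a ligand of Eph receptors, averaged 236 ± 46 in CDAHFD libraries and 89.2 ± 13 in ND libraries. S1pr2, which holds germinal centre B cells in place, averaged 238 ± 4.02 in CDAHFD libraries and 175 ± 12.7 in ND libraries, and Basp1 averaged 804 ± 14.2 and 454 ± 25.8. The fall was that of Gcsam, at 408 ± 26 in CDAHFD libraries and 475 ± 8.56 in ND libraries (log2 fold change -0.22, SE 0.08, limma adjusted p = 0.0217). Of the other uncalled genes, Mybl1 (0.39) and Mef2b (0.08) were higher, and Rgs13 (-0.97) and Neil1 (-0.15) lower.

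Beyond the members, 30 other B cell genes moved both ways: 11 rose, 17 fell and 2 did not pass, with a median of -0.16. That median was 0.08 and 0.27 under the scalings to CD8 T cell and core B cell genes, beside 0.23 and 0.42 for all genes. Chst3, a sulfotransferase, fell by 0.78 on the log2 scale. Pirb, an inhibitory receptor of B and myeloid cells, rose by 1.64, Cd38 by 1.20 and the activation marker Cd83 by 0.74 on the same scale. Of 26 other genes of antigen receptor signalling, many of them shared with T cells, 9 rose, 8 fell and 9 did not pass (median 0.06). Vav2, a guanine nucleotide exchange factor, averaged 2656 ± 193 in CDAHFD libraries and 1162 ± 61.8 in ND libraries, and Inpp5d, the phosphatase SHIP1 that limits receptor signals, averaged 8975 ± 214 and 6620.4 ± 130.5. Pik3r1 and Pik3ap1, of the phosphoinositide 3-kinase branch, rose by 0.48 and 0.46. The plasma cell list had 10 tested genes, with 6 risen, 1 fallen and 3 uncalled (median 0.71). Jchain, which joins antibody polymers, averaged 7615 ± 476 in CDAHFD libraries and 1095 ± 70.8 in ND libraries, Prdm1, the plasma cell regulator that T cells and macrophages also use, 531 ± 19.9 and 118 ± 15.5, and Xbp1 2132 ± 82.2 and 1272 ± 17. Tent5c, a polymerase that extends poly(A) tails, rose by 0.67 on the log2 scale.

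Ratios within a library set members against each other with the library's depth taken out. Where both genes are used by B cells alone, such a ratio does not depend on how much B cell RNA the library held. There were 11 ratios, each tested by an exact two-sided permutation over 20 regroupings of 3 against 3 libraries, where the smallest p is 0.1 and no ratio could pass 0.05. The log2 ratio of Cr2 to Fcer2a was 1.73, 1.65 and 1.64 in CDAHFD libraries, against 0.61, 0.70 and 0.65 in ND libraries, a 2.03-fold higher ratio (exact p = 0.1, adjusted over the 11 ratios 0.138). That of Cr2 to Pax5 averaged 0.32 ± 0.08 in CDAHFD libraries and -0.58 ± 0.08 in ND libraries, a difference of 0.90 with groups that did not overlap (exact p = 0.1). That of Fcer2a to Pax5 averaged -1.35 ± 0.04 in CDAHFD libraries and -1.23 ± 0.04 in ND libraries, a difference of -0.12 (exact p = 0.1). Without CDAHFD replicate 2 this difference was -0.10 (exact p = 0.2). Against Pax5, then, Cr2 differed by much more than Fcer2a did.

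In 3 pairs the groups overlapped. The log2 ratio of Ms4a1 to Pax5 averaged 0.28 ± 0.04 in CDAHFD libraries and 0.21 ± 0.11 in ND libraries (exact p = 0.4). That of Cd22 to Cd79a averaged -0.13 ± 0.02 in CDAHFD libraries and -0.15 ± 0.08 in ND libraries (exact p = 0.9). Dtx1 to Fcer2a averaged 2.85 ± 0.09 and 2.87 ± 0.06 (exact p = 0.9). In the other 8 pairs the groups did not overlap. Cd79b to Cd79a averaged -0.05 ± 0.06 in CDAHFD libraries and 0.17 ± 0.14 in ND libraries, and Tnfrsf13b to Tnfrsf13c averaged 0.29 ± 0.05 and 0.66 ± 0.08 (exact p = 0.1 each). The groups of Cd79b to Cd79a barely parted, at 0.00 in CDAHFD replicate 1 and 0.01 in ND replicate 1. Without any 1 of the CDAHFD libraries its exact p was 0.2. Blk to Lyn was -2.49, -2.40 and -2.38 in CDAHFD libraries, against -0.91, -0.77 and -0.82 in ND libraries, a difference of -1.59 (exact p = 0.1). Bcl6 to Pax5 averaged -1.32 ± 0.03 in CDAHFD libraries and -1.94 ± 0.10 in ND libraries, and Cd1d1 to Fcer2a averaged 0.77 ± 0.09 and -0.10 ± 0.04 (exact p = 0.1 each). Lyn, Bcl6 and Cd1d1 are also known from macrophages or other myeloid cells, and T cells also express Dtx1. Ratios that hold these genes can therefore depend on how much RNA of B cells and of other cells the library held. The part of other cells in them was not tested.

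**Figure D4:**
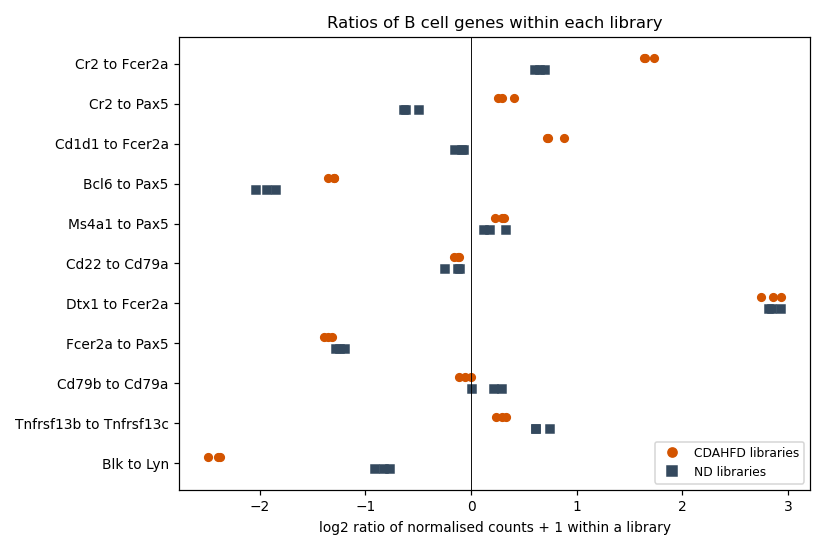
Log2 ratio of normalised counts of 11 gene pairs in each library, CDAHFD as circles and ND as squares, ordered by the difference between diets. Cr2 to Fcer2a lies at 1.64 to 1.73 in CDAHFD libraries and 0.61 to 0.70 in ND libraries, while Ms4a1 to Pax5, Cd22 to Cd79a and Dtx1 to Fcer2a overlap.

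Cr2 is also transcribed by follicular dendritic cells, the stromal cells that hold antigen in follicles. Of 10 genes of follicular stroma with values, 6 were tested, of which 3 rose, 1 fell and 2 did not pass, and the summed level of all 10 was 1039.9 to 1092 normalised counts in CDAHFD libraries and 707 to 801 in ND libraries. Madcam1 had at most 1 read in any library. The log2 fold changes of the 6 tested genes ran from -0.84 to 2.91, so the list went both ways. Among the genes that rose, Clu averaged 65 ± 6.75 in CDAHFD libraries and 24.7 ± 6.85 in ND libraries, and Enpp2 145 ± 16 and 19.1 ± 7.16. The part of such cells in the rise of Cr2 was not tested.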

How the data were processed

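RNA of splenic CD8+ T cells was sequenced in 6 libraries. Per the labels' protocols, total RNA went into kits for either whole RNA or mRNA, and which library had which kit is not stated. The authors deposited normalised counts, a signal made by dividing each gene's reads by 1 factor per library, and the build was mm10 per the submitters' processing notes. Aligner, counter, strand setting and annotation are not given in the sources used here. Every value was a whole multiple of its column's smallest value above 0 (100% whole within 0.001), which gave back the whole reads (25314988 to 28067393 per library). The column headers spell CDAHFD as CDHFD and were matched as the only other group.

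The test was limma 3.58.1 (trend, robust) in R 4.3.3 on log2(normalised count + 1) for 15819 genes, those that averaged 10 or more. Diet was its single covariate, and p-values were adjusted by Benjamini and Hochberg's method across those genes. Fold changes on this scale understate changes of low genes. Symbols matched 26147 of 26181 Ensembl IDs, and positions and exon lengths came from GENCODE M21. On the whole reads, edgeR 4.0.16 (quasi-likelihood) called 7489 genes and DESeq2 1.42.0 called 6755, where limma called 7449. Both gave limma's call for 36 of 36 tested members. The test was checked on simulated data. Lists are described by counts and medians, with no list test. Alternatives were pseudocounts of 0.5 and 5, a filter at a mean of 50 or none, other scalings, limma without trend, the replicate number as a block, 1.5-fold as a further threshold, and leaving out single libraries. The 38 members and the lists were chosen with earlier results of these data known. Named are all members, the core B cell genes and, of each other list, up to 4 called genes with the smallest adjusted p. Some genes named by this rule are not reported here. Any further gene completes a count, checks a label, or was picked with its value known.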

Additional observations from a re-analysis of the deposited data

How the results depend on the processing

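Of 36 tested members, 31 were called, 12 risen and 19 fallen. Totals stayed between 27 and 32 under every other setting but the fold threshold, which left 12 members called at 1.5-fold or more, 6 risen and 6 fallen. With a replicate block 31 members were called, 12 risen and 19 fallen, and no member's call changed. Same-numbered libraries share only a number: their deviations from the group means correlated at 0.041, -0.051 and 0.062. Leaving out 1 library gave 27 to 31 calls, 10 to 12 risen and 17 to 20 fallen. limma without trend and robust estimation lost the calls of Cd72, Fcrl1, Plcg2 and Cd1d1. Among all genes, 7449 were called, 11940 with libraries scaled to the core B cell genes, 2948 with the 1.5-fold threshold and 6105 to 9176 under the other settings.

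With libraries scaled to the core B cell genes, 21 members were called risen and 6 fallen, beside 72.3% and 3.13% of all genes. The calls of that fit rest on 1 spread shared by most genes, and its p-values are not given. The falls of Cd79b, Ms4a1, Fcrla, Ralgps2, Pax5, Mef2c and Bcl11a were uncalled there, with their sign kept. Signs then turned for Cd79a (0.13), Cd22 (0.15), Cd72 (0.30), Faim3 (0.11), Blk (0.01), Ebf1 (0.20), Hvcn1 (0.38) and Cd180 (0.32), with a median over all genes of 0.42. With libraries scaled to CD8 T cell genes (median over all genes 0.23), Cd72 (0.11), Hvcn1 (0.19), Ebf1 (0.01) and Cd180 (0.13) turned. Cd79a, Cd22 and Faim3 lost their calls under that scaling. It gave 16 members called risen and 14 fallen, where 9176 of all 15819 genes tested were called in either direction. Each of these scalings shifts every gene by the same amount, and which of them fits these libraries best was not tested. Of the ratios, Dtx1 to Fcer2a (-0.02) turned to 0.01 without ND replicate 1 and 0.03 without CDAHFD replicate 1, and ranged from -0.06 to 0.03 over the libraries left out, and Cd22 to Cd79a (0.03) turned to -0.02 without ND replicate 1, with a range of -0.02 to 0.05. Depth limits Cxcl13 and Scd3, which rest on few reads.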
